A study of Mus musculus with 18 samples.

Results

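Hemidesmosomes and the basement membrane beneath them were examined through 9 genes: Itga6, Itgb4, Itga3, Itgb1, Col17a1, Dst, Plec, Lama3 and Lamb3. The genes were chosen by name, and a probe set was taken where the platform's annotation pairs it with exactly 1 gene and that gene is on the list. All 9 were found, each with 1 probe set, among 21789 probe sets of this kind and 35556 in the whole table. The series holds 18 Affymetrix Mouse Gene ST arrays, 3 per group, in glabrous hindpaw epidermis peeled off after dispase and in lumbar dorsal root ganglia (DRG), the clusters of sensory neuron cell bodies beside the spinal cord.

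The 6 groups were epidermis from CFA mutant, CFA control, naive mutant and naive control mice, and DRG from naive mutant and naive control mice. Every mouse carried K14Cre, a Cre recombinase that the keratin 14 promoter switches on in keratinocytes and other keratin 14-expressing epithelial cells. Mutant mice were Trpa1 fl/fl, with loxP sites around the exons for the pore of the ion channel TRPA1, and control mice were Trpa1+/+, which GEO's labels call wild type. The mice were adult males of at least 7 weeks on a mixed C57BL/6, CBA and Swiss Webster background. Mutant and control colonies were kept separately, so genotype and colony cannot be told apart. CFA, complete Freund's adjuvant, is an oil-based inflammatory agent, and 50 µl was injected into the hindpaw 2 days before the epidermis was taken. No arrays came from vehicle-injected paws, so CFA was set against naive skin, and the effect of the injection itself cannot be told apart from that of the adjuvant.

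Hemidesmosomes rivet basal keratinocytes to the basement membrane. On the cell's underside the integrin α6β4 and type XVII collagen span the membrane and bind laminin outside, and inside the cell the plakins plectin and dystonin tie them to keratin filaments. The integrin α3β1 binds the same laminin but sits outside the hemidesmosome, in contacts linked to actin. Loss of several of these proteins causes blistering of the skin.

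The signal is a log2 value per probe set, so a difference of 1 is a doubling. Background was taken on each array from 1218 probe sets of chemoreceptor genes (Olfr, Vmn and Taar), which these tissues should largely lack, as their 95th percentile. It lay at 4.58 to 4.79 in epidermis and 5.77 to 5.92 in DRG, and all 9 genes exceeded it on all 18 arrays. Replicate arrays of a group correlated at r = 0.992 to 0.996 in epidermis and 0.994 to 0.997 in DRG, across probe sets. Trpa1 itself gave 3.61 to 3.97 over the 12 epidermal arrays, 0 of them above background, so the epidermal arrays cannot check the deletion. Basal keratinocyte markers such as Krt5 and Krt14 were above background on every epidermal array, 6 of 6 genes, and all 8 sensory neuron markers on every DRG array. Of the 6 basal genes, 4 were also above background on every DRG array, so passing it does not by itself tell the tissues apart.

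Ranks within each array were used to place the genes in each tissue. The arrays of skin and ganglion were normalized apart, so a gene's place was given as its percentile among the 23410 probe sets tested on the same array, with no test. Genes of the epidermal laminin and type XVII collagen ranked far lower in DRG. Col17a1, the hemidesmosomal collagen, averaged the 95.4 percentile in naive control epidermis and 46.3 in naive control DRG. Lama3, an α chain of the epidermal laminin trimer, averaged 85.7 in naive control epidermis and 44.3 in naive control DRG. Lamb3, the β chain of that trimer, averaged 75.5 in naive control epidermis and 36.2 in naive control DRG. For these 3 genes the naive epidermal and DRG arrays did not meet.

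Dst and Itgb1 ran the other way. Dst encodes dystonin, a plakin made in epithelial and in neuronal forms, and averaged the 71.7 percentile in naive control epidermis and 98.2 in naive control DRG. Itgb1, the β1 integrin chain that pairs with many α chains and is found in most tissues, averaged 88.8 in naive control epidermis and 95 in naive control DRG. Itga6 and Itgb4, the 2 chains of the hemidesmosomal integrin, also found on Schwann cells, averaged 93.7 and 89.2 in naive control epidermis and 77.8 and 76.3 in naive control DRG. Itga3 and Plec averaged 79.7 and 88.2 in naive control epidermis and 75.6 and 81.4 in naive control DRG, and the naive epidermal and DRG arrays of Itga3 overlapped. Schwann cell markers were above background on every DRG array, 4 of 4 genes, and 3 of the 4 were so on every epidermal array. In whole tissue, fewer cells of a type and less RNA per cell cannot be told apart.

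**Figure D1:**
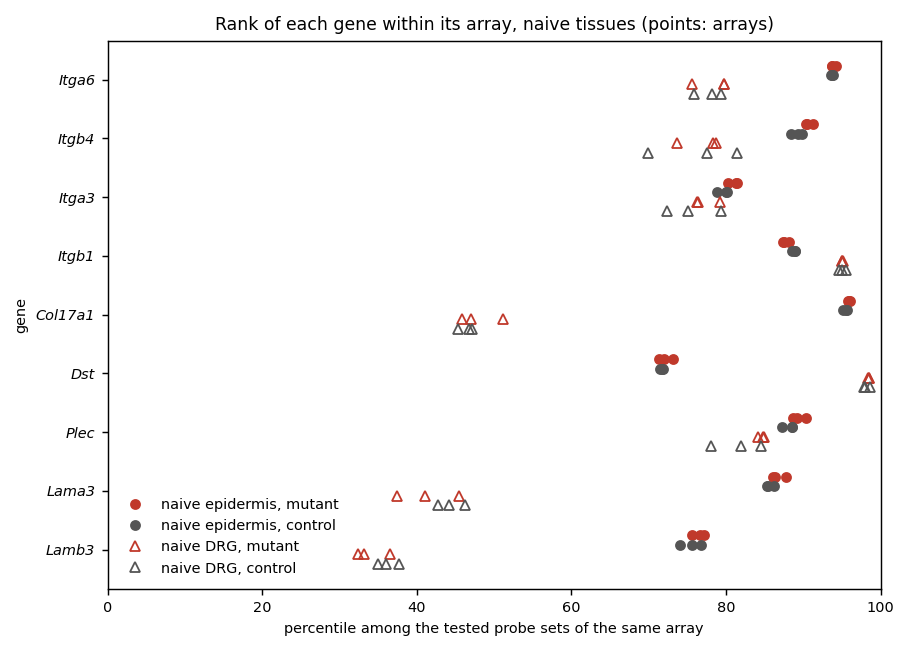
Percentile of each gene (rows) among the 23410 probe sets tested on the same array (horizontal axis, 0 to 100), with 1 point per array, circles for naive epidermis, triangles for naive DRG, red for mutant and grey for control. Col17a1, Lama3 and Lamb3 lie far to the left in DRG, Dst lies at the right edge in DRG, and mutant and control arrays of a tissue lie close together for every gene.

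The sequence before the transcription start was used here for 5 of the 9 genes, in 8 windows of 250 bases from RefSeq (build GRCm38.p6). Windows are shown for Dst, whose rank differs between the tissues and which has 2 annotated starts among them, and for Col17a1, whose rank differs the other way. Capitals mark matches, on either strand, to GGGCGG (the GC box), CCAAT (the CCAAT box) or TATAAA (the TATA box). The first Dst window is chr1:34011345-34011594 on the plus strand, the second is chr1:34160010-34160259 on the plus strand, and the Col17a1 window is chr19:47692043-47692292 on the minus strand.
Dst first start: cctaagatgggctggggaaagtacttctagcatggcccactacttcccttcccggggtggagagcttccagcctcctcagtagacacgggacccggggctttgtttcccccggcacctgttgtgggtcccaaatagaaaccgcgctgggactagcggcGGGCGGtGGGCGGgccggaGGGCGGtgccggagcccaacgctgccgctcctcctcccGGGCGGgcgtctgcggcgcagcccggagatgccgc
Dst second start: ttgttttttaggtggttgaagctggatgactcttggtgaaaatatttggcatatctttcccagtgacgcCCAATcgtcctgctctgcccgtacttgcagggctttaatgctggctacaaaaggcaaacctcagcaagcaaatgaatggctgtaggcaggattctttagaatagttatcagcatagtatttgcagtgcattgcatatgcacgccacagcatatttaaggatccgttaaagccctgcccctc
Col17a1: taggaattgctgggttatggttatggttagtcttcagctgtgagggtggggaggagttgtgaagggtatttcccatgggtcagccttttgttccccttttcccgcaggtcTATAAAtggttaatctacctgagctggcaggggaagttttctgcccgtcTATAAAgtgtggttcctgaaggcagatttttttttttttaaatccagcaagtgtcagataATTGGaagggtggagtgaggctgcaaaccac
The first Dst window holds 4 GC boxes and is 68.8% G and C, and the second holds 0 GC boxes and 1 CCAAT box and is 45.2% G and C. That of Col17a1 holds 2 TATA boxes and 1 CCAAT box. Among 32851 windows of the same length, 32.7% hold a GC box, 33.8% a CCAAT box and 12.4% a TATA box. TGANTCA, the letters bound by AP-1 factors, was in 0 of the 8 windows and in 6.75% of all windows. No window of Itga6, Itgb4, Plec or Lama3 was among the 8, so these genes were not searched. The matches are a description, and the probe set for Dst does not say which start was used.

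The first question was how the genes responded to CFA in mutant epidermis. All 9 rose, in limma with Benjamini-Hochberg adjustment over all 23410 probe sets and an adjusted p under 0.05, where 12.9% of all probe sets tested were called higher and 13.1% lower. Their median log2 difference, CFA minus naive, was 0.61, against 0.04 over all probe sets tested. In all 9 the lowest CFA array lay above the highest naive array, as did 24% of all probe sets. In control epidermis 6 of the 9 rose, where 11.5% of all probe sets were called higher and 14.8% lower, with a median difference of 0.56 against 0.03 over all. Again the CFA and naive arrays did not overlap in any of the 9, as in 21.7% of all probe sets with CFA higher.

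**Figure D2:**
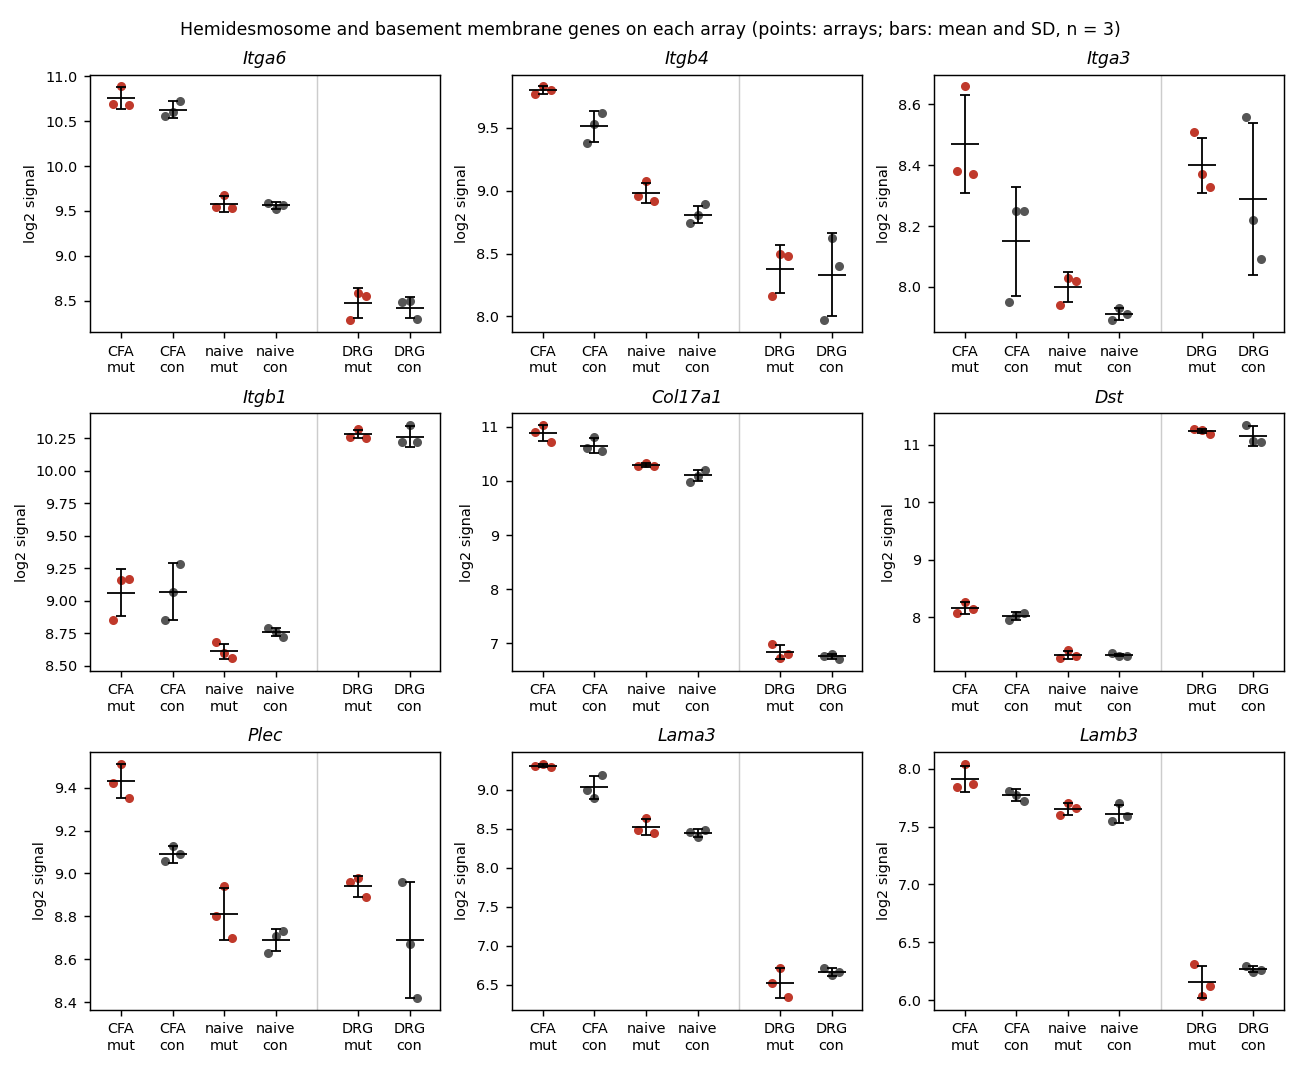
Log2 signal (vertical axes, each with its own range) of the 9 genes on each array, as points, with the mean and SD of each group of 3, mutant red and control grey. In epidermis, left of the line, every gene is higher in CFA than in naive arrays of the same genotype, whereas DRG, right of the line, was normalized apart and its values are not to be set against those of epidermis.

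The largest difference of the 9 was that of Itga6, the α6 chain of the hemidesmosomal integrin. It gave 10.69, 10.89 and 10.68 in CFA mutant epidermis, against 9.54, 9.68 and 9.53 in naive mutant epidermis. In control mice it gave 10.56, 10.60 and 10.73 in CFA epidermis, against 9.59, 9.52 and 9.56 in naive epidermis. All 6 CFA arrays thus lay above all 6 naive arrays by a wide margin. The difference was 1.17 ± 0.09 in mutant (SE, 2.25-fold, adjusted p = 4.95e-05) and 1.07 ± 0.09 in control epidermis (SE, 2.10-fold, adjusted p = 2.73e-05). It was the only one of the 9 to reach 2-fold, in either genotype, as 3.43% of all probe sets did with an adjusted p under 0.05 in mutants and 4.72% in controls, in either direction.

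Itgb4, whose long cytoplasmic tail binds plectin, gave 9.77, 9.83 and 9.80 in CFA mutant epidermis, against 8.96, 9.08 and 8.92 in naive mutant epidermis. Its control values were 9.38, 9.53 and 9.62 in CFA epidermis, against 8.74, 8.81 and 8.89 in naive epidermis. The CFA mutant arrays agreed closely and lay above every other epidermal array. Itgb4 rose by 0.81 ± 0.08 in mutant (SE, adjusted p = 0.000146) and 0.70 ± 0.09 in control epidermis (SE, adjusted p = 0.000652).

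Col17a1 gave 10.90, 11.03 and 10.72 in CFA mutant epidermis, against 10.27, 10.33 and 10.27 in naive mutant epidermis. The control arrays read 10.60, 10.81 and 10.55 with CFA, against 9.98, 10.09 and 10.21 in naive epidermis. Every CFA array exceeded every naive array, while the CFA arrays of the 2 genotypes overlapped. The collagen gene rose by 0.59 ± 0.09 in mutant (SE, adjusted p = 0.00209) and 0.56 ± 0.10 in control epidermis (SE, adjusted p = 0.00415).

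Inside the cell, both plakin genes rose in both genotypes. Dst gave 8.07, 8.27 and 8.15 in CFA mutant epidermis, against 7.29, 7.42 and 7.32 in naive mutant epidermis. In control mice Dst gave 7.95, 8.03 and 8.08 in CFA epidermis, against 7.37, 7.33 and 7.32 in naive epidermis. CFA and naive arrays were well apart, and the genotypes overlapped within each. The rise was 0.82 ± 0.08 in mutant (SE, adjusted p = 0.000244) and 0.68 ± 0.08 in control epidermis (SE, adjusted p = 0.000358). Plec, which encodes plectin, gave 9.42, 9.51 and 9.35 in CFA mutant epidermis, against 8.80, 8.94 and 8.70 in naive mutant epidermis. Its control readings were 9.06, 9.13 and 9.09 in CFA epidermis, against 8.63, 8.71 and 8.73 in naive epidermis. The 3 CFA mutant arrays were the highest of the 12. Plec rose by 0.61 ± 0.09 in mutant (SE, adjusted p = 0.00151) and 0.40 ± 0.08 in control epidermis (SE, adjusted p = 0.00662).

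The laminin chains differed from each other. Lama3 gave 9.30, 9.33 and 9.29 in CFA mutant epidermis, against 8.48, 8.64 and 8.44 in naive mutant epidermis. In control mice Lama3 gave 9.0, 8.90 and 9.19 in CFA epidermis, against 8.46, 8.39 and 8.48 in naive epidermis. It was tightly grouped and highest with CFA in mutants, and it rose by 0.79 ± 0.08 in mutant (SE, adjusted p = 0.000225) and 0.59 ± 0.10 in control epidermis (SE, adjusted p = 0.00221). Lamb3 gave 7.84, 8.04 and 7.87 in CFA mutant epidermis, against 7.60, 7.70 and 7.66 in naive mutant epidermis. The control arrays of Lamb3 read 7.81, 7.77 and 7.72 with CFA, against 7.55, 7.70 and 7.59 in naive epidermis, so the gap between them was narrow. Its rise of 0.26 ± 0.08 in mutants just passed (SE, adjusted p = 0.0459), and the call was lost when any 1 of the 6 arrays was left out, at adjusted p = 0.0534 to 0.137. In control epidermis the difference of 0.15 ± 0.09 did not pass (SE, adjusted p = 0.214).

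The chains of the integrin outside the hemidesmosome had the smallest differences among the receptor genes. Itga3, its α chain, gave 8.38, 8.66 and 8.37 in CFA mutant epidermis, against 7.94, 8.03 and 8.02 in naive mutant epidermis. In control mice Itga3 gave 7.95, 8.25 and 8.25 in CFA epidermis, against 7.89, 7.93 and 7.91 in naive epidermis, where CFA replicate 1 stood barely above the naive arrays. It rose by 0.47 ± 0.10 in mutants (SE, adjusted p = 0.00783), and the difference of 0.24 ± 0.10 in control epidermis did not pass (SE, adjusted p = 0.128). Itgb1 gave 8.85, 9.16 and 9.17 in CFA mutant epidermis, against 8.68, 8.60 and 8.56 in naive mutant epidermis. For controls Itgb1 read 8.85, 9.07 and 9.28 in CFA epidermis, against 8.79, 8.76 and 8.72 in naive epidermis. Replicate 1 was the lowest CFA array in each genotype. Itgb1 rose by 0.45 ± 0.10 in mutants (SE, adjusted p = 0.0134) and differed by 0.31 ± 0.11 in control epidermis (SE, adjusted p = 0.0793). Without CFA control replicate 1, both genes passed in control epidermis, Itga3 at 0.34 (adjusted p = 0.0225) and Itgb1 at 0.42 (adjusted p = 0.0202). Leaving out CFA mutant replicate 2 put Itgb1 in mutants at an adjusted p of 0.05.

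**Figure D3:**
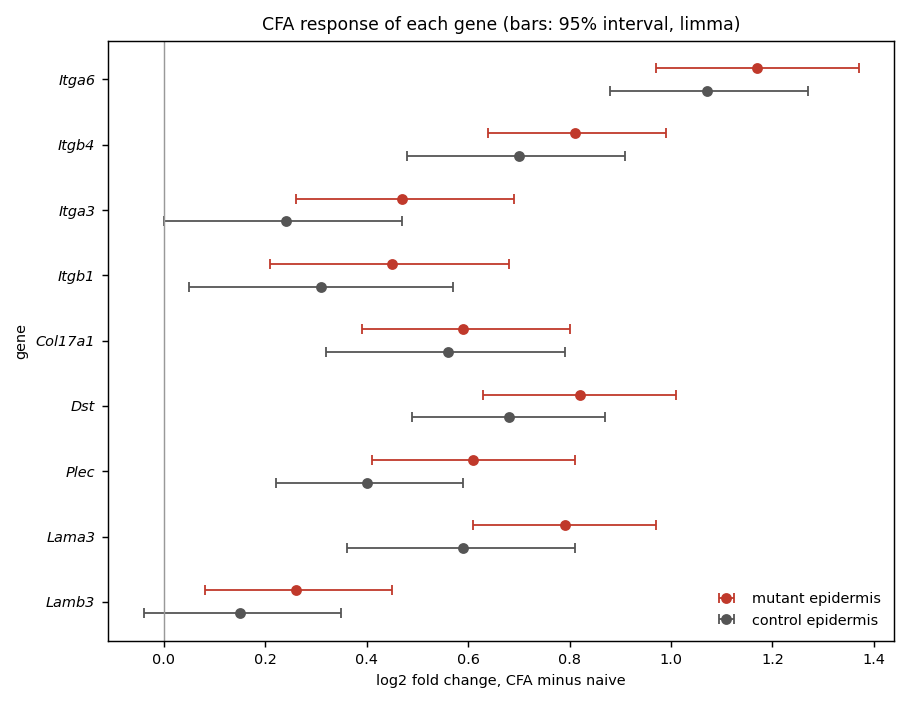
Log2 fold change, CFA minus naive (horizontal axis), of each gene (rows) in mutant (red, upper) and control epidermis (grey, lower), with 95% intervals from limma. Every point lies right of 0, Itga6 lies farthest right and Lamb3 nearest to 0, and the 2 intervals of each gene overlap.

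Other genes of the basement membrane mostly rose where they were called. Of 29 measured laminin, collagen and basement membrane genes apart from the 9, 10 rose and 0 fell in CFA mutant epidermis, and 9 rose and 2 fell in CFA control epidermis, each against naive skin of that genotype. Sparc, a collagen-binding matricellular protein, rose by 1.13 in mutants (adjusted p = 0.000238) and 1.24 in controls (adjusted p = 7.19e-06). Agrn, which encodes the heparan sulphate proteoglycan agrin, rose by 0.73 in mutants (adjusted p = 0.000161) and 1.21 in controls (adjusted p = 5.01e-05). Col7a1, the collagen of the anchoring fibrils below the hemidesmosome, rose by 0.48 in mutants (adjusted p = 0.00199) and 0.62 in controls (adjusted p = 0.000467). Npnt, an integrin ligand of the basement membrane, differed by -0.37 in mutants (adjusted p = 0.0939) and fell by 0.86 in controls (adjusted p = 0.000166).

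Among 22 other integrin subunits, 4 rose and 0 fell in mutant epidermis, and 5 rose and 1 fell in control epidermis. Itgav rose by 0.44 in mutants (adjusted p = 0.0033) and 0.41 in controls (adjusted p = 0.00928), and Itgb6, whose product pairs with that of Itgav, differed by -0.32 in mutants (adjusted p = 0.1) and fell by 0.87 in controls (adjusted p = 0.00167). Of 25 adaptors that tie integrins to the cytoskeleton or sit beside them in the membrane, 7 rose and 1 fell in mutants, and 4 rose and 4 fell in controls. Fermt1, which encodes the integrin activator kindlin-1 of keratinocytes, rose by 0.70 in mutants (adjusted p = 0.000477) and differed by 0.26 in controls (adjusted p = 0.103). Cd151, a tetraspanin partner of both laminin-binding integrins, rose by 0.33 in mutants (adjusted p = 0.0233) and differed by 0.31 in controls (adjusted p = 0.101). Of 17 laminin-processing enzymes and other laminin receptors, 3 rose and 1 fell in mutants, and 4 rose and 3 fell in controls. Plau, which encodes urokinase, rose by 0.87 in mutants (adjusted p = 0.000604) and 0.89 in controls (adjusted p = 0.00105). Bcam, a receptor for another laminin α chain, differed by 0.39 in mutants (adjusted p = 0.277) and rose by 0.82 in controls (adjusted p = 3e-04). In the interaction 0 genes of these 4 lists passed. Over all probe sets 12.9% were called higher in mutants, and 11.5% higher and 14.8% lower in controls, so 4 of 22 integrin subunits and 3 of 17 processing enzymes and receptors higher in mutants, and 4 of 25 adaptors each way in controls, lay near the general rate. Higher counts above that rate were 10 of 29 basement membrane genes and 7 of 25 adaptors in mutants. In controls they were 9 of 29 basement membrane genes, 5 of 22 integrin subunits and 4 of 17 processing enzymes and receptors. The median log2 difference of these 4 lists lay between 0.08 and 0.23 in mutants and between 0 and 0.25 in controls, against 0.61 and 0.56 for the 9 genes.

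The keratinocyte markers moved with CFA too. Basal markers rose in 5 of 6 genes in each genotype, with medians of 0.40 in mutants and 0.41 in controls. Cdh3, the P-cadherin of basal cells, rose by 0.91 in mutants (adjusted p = 0.00217) and 1.01 in controls (adjusted p = 0.000187). Trp63, the transcription factor of basal keratinocytes, rose by 0.54 in mutants (adjusted p = 0.00137) and 0.47 in controls (adjusted p = 0.00452). The mean log2 signal of the 6 basal genes was 10.35 to 10.55 in CFA mutant arrays, against 10 to 10.09 in naive mutant arrays, and 10.45 to 10.57 in CFA control arrays, against 10 to 10.01 in naive control arrays. Suprabasal markers fell in 5 of 11 genes in mutants and 7 of 11 in controls, with 0 higher. Their mean signal was 10.33 to 10.66 in CFA mutant arrays, against 11.40 to 11.46 in naive mutant arrays, and 10.24 to 10.63 in CFA control arrays, against 11.34 to 11.39 in naive control arrays. Lor, which encodes loricrin of the cornified layer, fell by 2.52 in mutants (adjusted p = 4.03e-07) and fell by 1.63 in controls (adjusted p = 0.000486). The part of these shifts in the higher signal of the 9 genes was not tested. Of 11 proliferation genes, 1 rose in mutants and 0 in controls.

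Genes of activated keratinocytes had higher medians than the 9 genes and a wider spread. Of 10 measured, 3 rose and 2 fell in mutants and 1 rose and 2 fell in controls, with median differences of 1.07 in mutants and 0.71 in controls. Krt16, a keratin of wounded skin, rose by 2.15 in mutants (adjusted p = 0.0124) and differed by 1.52 in controls (adjusted p = 0.113). Sprr1b, a precursor of the cornified envelope, fell by 1.75 in mutants (adjusted p = 0.000826) and fell by 2.22 in controls (adjusted p = 1.58e-05). Markers of immune cells moved as well. Thy1, a marker of T cells, rose by 1.03 in mutants (adjusted p = 0.000415) and 1.31 in controls (adjusted p = 0.000116). Cd68, a macrophage marker, fell by 1.73 in mutants (adjusted p = 5.71e-06) and fell by 1.77 in controls (adjusted p = 2.01e-05). It was the only 1 of 6 Langerhans cell and macrophage genes called lower, while 1 rose in mutants and 4 in controls. Lyz2, also of that list, rose by 1.08 in mutants (adjusted p = 0.0176) and 0.62 in controls (adjusted p = 0.0274), but was above background on only 2 of 12 arrays. Cxcr2, a chemokine receptor of neutrophils, fell by 1.19 in mutants (adjusted p = 0.00029) and fell by 1.5 in controls (adjusted p = 0.000294). Only Cxcr2 of 5 neutrophil genes was above background on all 12 epidermal arrays, and the differences of the other 4 were above 0 in each genotype. Cd74, of antigen-presenting cells, differed by 0.17 in mutants (adjusted p = 0.205) and rose by 0.89 in controls (adjusted p = 9.33e-05). The part of these cells and states in the signal of the 9 genes was not tested either.

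**Figure D4:**
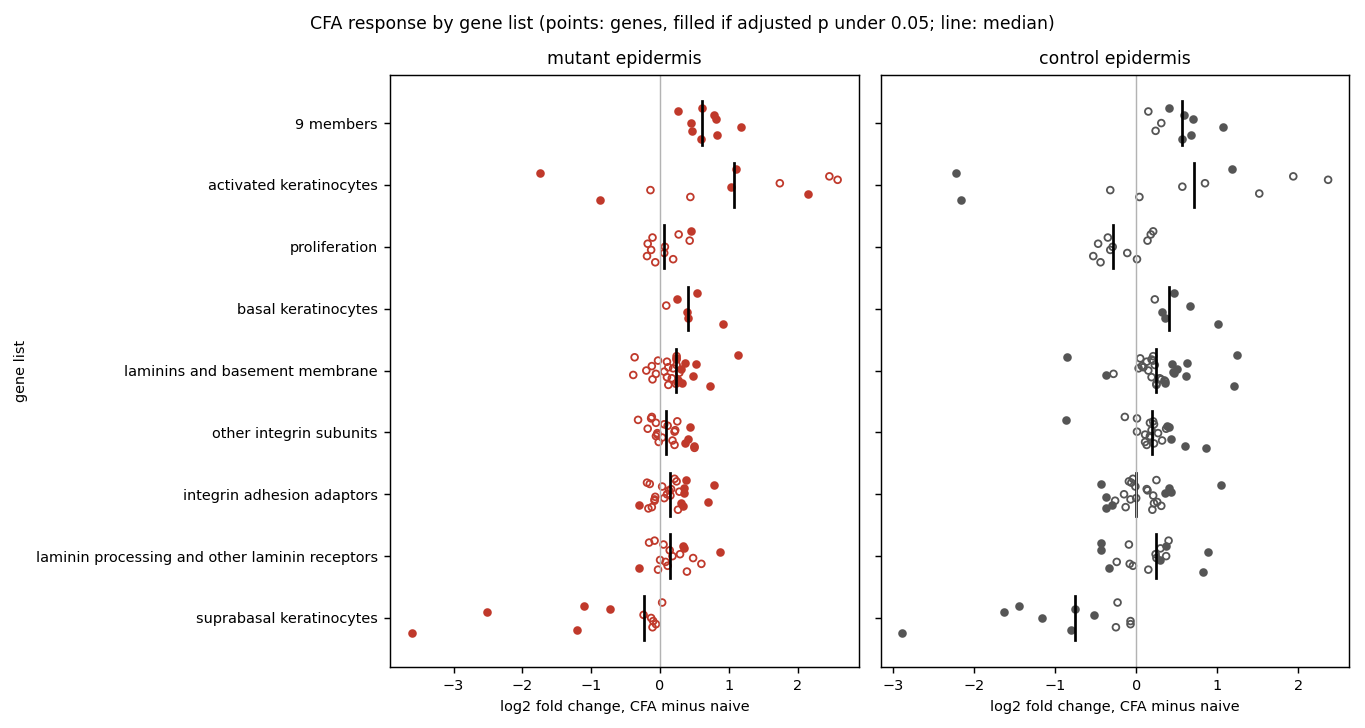
Log2 fold change, CFA minus naive (horizontal axes), of each gene of 9 lists (rows) in mutant (left) and control epidermis (right), filled where the adjusted p was under 0.05, with the median of each list as a black line. The medians of the 9 genes, 0.61 and 0.56, lie left of those of the activated keratinocyte list, 1.07 and 0.71, whose genes spread widely to both sides, and the suprabasal list reaches far to the left, where the outermost point is Flg2, whose mean signal of 3.66 in CFA mutant epidermis lay below background.

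Whether the response differed between genotypes was tested as the interaction over all 12 epidermal arrays. None of the 9 genes passed, 0 at an adjusted p under 0.05, where 0.0256% of all probe sets passed, 0 at an unadjusted p under 0.05, beside 8.26% of all, and 0 after adjustment without limma's variance moderation. All 9 differences, mutant response minus control response, were above 0, as were 54.5% over all probe sets, with a median of 0.14 against 0.02 over all. The genes share the same arrays, so their common sign is not 9 separate observations. It was not particular to them, since 11 of 11 proliferation genes (median 0.24) and 9 of 10 activated keratinocyte genes (median 0.47) were also above 0, with 0 called. Itga3 had the largest difference, 0.24 (95% interval -0.07 to 0.55, adjusted p = 0.689). Plec followed with 0.21 (95% interval -0.03 to 0.46, adjusted p = 0.663), and Col17a1 had the smallest with 0.04 (95% interval -0.26 to 0.34, adjusted p = 0.965).

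Mutant and control were then compared within CFA epidermis, on arrays that also enter the CFA responses above. Of the 9 genes, 0 passed at an adjusted p under 0.05 in limma, where 0.179% of all probe sets passed, and 0 without limma's variance moderation. At an unadjusted p under 0.05, 4 of the 9 stood out, beside 8.96% of all probe sets, all 4 higher in mutants. The genes share the same arrays, so these are not 4 separate observations. At that threshold also stood 6 of 17 laminin-processing and receptor genes, 6 of 29 basement membrane genes and 5 of 11 suprabasal genes, in either direction. Of 11 proliferation genes 0 did. Plec averaged 9.43 ± 0.08 in CFA mutant and 9.09 ± 0.04 in CFA control epidermis (SD, n = 3 each), and the difference in limma was 0.33 (adjusted p = 0.256). Itgb4 averaged 9.80 ± 0.03 in CFA mutant and 9.51 ± 0.12 in CFA control epidermis (SD, n = 3 each), a difference of 0.29. Lama3 averaged 9.31 ± 0.02 in CFA mutant and 9.03 ± 0.15 in CFA control epidermis (SD, n = 3 each), a difference of 0.28. The remaining one, Itga3, averaged 8.47 ± 0.16 in CFA mutant and 8.15 ± 0.18 in CFA control epidermis (SD, n = 3 each), a difference of 0.32. Their adjusted p in limma was 0.256 to 0.468. In these 4 and Lamb3 every mutant array lay above every control array, 5 of 9 genes, as did 8.68% of all probe sets. The median difference of the 9 was 0.23, against 0.01 over all. The differences of 8 were above 0, as were 54.3% over all probe sets, and that of Itgb1 was not, at -0.01 (95% interval -0.31 to 0.30). The mean basal marker signal in the same arrays overlapped, at 10.35 to 10.55 in CFA mutant and 10.45 to 10.57 in CFA control epidermis. Single markers went both ways. Of 6 basal genes, 4 differed above 0 and 2 below, with a median of 0.01. Krt15, a basal keratin, averaged 8.79 in CFA mutant and 9.36 in CFA control epidermis, a difference of -0.56 (adjusted p = 0.0716), without overlap. Of 11 suprabasal genes, 7 differed above 0 and 4 below. Krt9, a suprabasal keratin of palm and sole skin, averaged 11.90 in CFA mutant and 10.71 in CFA control epidermis, a difference of 1.19 (adjusted p = 0.226), without overlap. Flg2 differed by -0.97 (adjusted p = 0.0636), without overlap, but was above background on only 7 of 12 arrays. Lor differed by -0.61 (adjusted p = 0.392), with overlap. Csf1r, a receptor of macrophages and Langerhans cells, averaged 6.88 in CFA mutant and 7.66 in CFA control epidermis, and fell by 0.78 in mutants (adjusted p = 0.0103). The part of these markers in the members' differences was not tested.

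In naive epidermis 0 of the 9 passed in limma, where 0.0299% of all probe sets passed, and 0 without limma's variance moderation. At an unadjusted p under 0.05 there was 1, Col17a1, beside 8.94% of all probe sets. It averaged 10.29 ± 0.04 in naive mutant and 10.10 ± 0.11 in naive control epidermis (SD, n = 3 each), a difference of 0.19 in limma (adjusted p = 0.518). Mutant arrays lay above all control arrays for Col17a1, Itgb4 and Itga3, 3 of 9 genes, as in 7.66% of all probe sets. Itgb4 was at 0.17 (95% interval 0 to 0.34) and Itga3 at 0.08 (95% interval -0.06 to 0.23). Itgb1 lay below all control arrays, as in 8.93% of all probe sets, averaging 8.61 ± 0.06 in naive mutant and 8.76 ± 0.03 in naive control epidermis (SD, n = 3 each). The median over the 9 was 0.08, against 0 over all. In the same arrays 10 of 11 proliferation genes (median -0.20, 5 at an unadjusted p under 0.05) and 9 of 10 activated keratinocyte genes (median -0.48, 3 at an unadjusted p under 0.05) were below 0, with 0 called, and their part in the values of the 9 genes was not tested.

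The DRG of naive mutant and naive control mice did not separate in any of the 9 genes. In limma 0 of 9 passed, where 0.0726% of all probe sets passed, 0 had an unadjusted p under 0.05, beside 7.15% of all, and 0 passed without limma's variance moderation. All 9 overlapped, as most probe sets did, with 11.8% of all not overlapping. Plec had the largest difference, 0.26 (95% interval -0.03 to 0.54), from 8.96, 8.98 and 8.89 in mutant DRG, against 8.96, 8.67 and 8.42 in control DRG. The mutant arrays were close together, and the control arrays spread more widely. Dst, high in every DRG array, gave 11.27, 11.25 and 11.19 in mutant DRG, against 11.34, 11.07 and 11.04 in control DRG, a difference of 0.09 (95% interval -0.12 to 0.30). Itgb1 gave 10.26, 10.32 and 10.25 in mutant DRG, against 10.22, 10.35 and 10.22 in control DRG, nearly the same values. Lama3 had the lowest difference, -0.14 (95% interval -0.36 to 0.08), from 6.52, 6.71 and 6.34 in mutant DRG, against 6.72, 6.62 and 6.66 in control DRG. Col17a1 gave 6.98, 6.73 and 6.80 in mutant DRG, against 6.77, 6.81 and 6.71 in control DRG. Its highest array, mutant replicate 1, also had the highest mean over 11 suprabasal keratinocyte genes, at 6.18, against 5.59 and 5.6 in the other mutant arrays and 5.51 to 5.81 in control DRG. Only 4 of these 11 genes were above background on every DRG array. The part of keratinocyte RNA in the Col17a1 signal was not tested. Itga6, Itgb4, Itga3 and Lamb3 differed by -0.11 to 0.11.

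**Figure D5:**
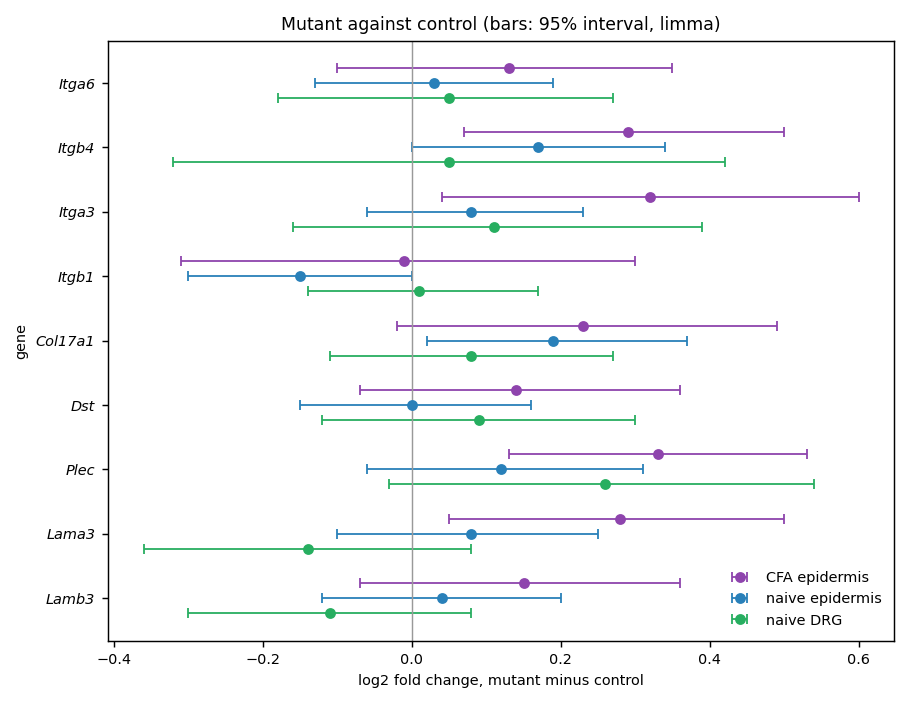
Log2 fold change, mutant minus control (horizontal axis), of each gene (rows) in CFA epidermis (purple), naive epidermis (blue) and naive DRG (green), with unadjusted 95% intervals from limma. In CFA epidermis the intervals of Itgb4, Itga3, Plec and Lama3 lie right of 0, in naive epidermis that of Col17a1 does, and in DRG every interval spans 0.

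The 4 epidermal groups fell in 1 order for 8 of the 9 genes. The genes share the same arrays, so these are not 8 separate observations. The share of all probe sets in this order was not counted. Group means ran from CFA mutant through CFA control and naive mutant to naive control, although Itga6 and Dst averaged 9.58 and 7.34 in naive mutant and 9.56 and 7.34 in naive control epidermis, within their spread. Itgb1 alone was ordered otherwise, with CFA control above CFA mutant and naive control above naive mutant. CFA against naive skin passed the test in all 9 genes in mutants and in 6 of 9 in controls, where Itga3, Itgb1 and Lamb3 did not, and mutant against control passed in none. Averaged over the 9 genes after centring each on its epidermal mean, the log2 signal was 0.34, 0.50 and 0.36 in CFA mutant arrays and 0.11, 0.21 and 0.26 in CFA control arrays. The naive arrays lay below, at -0.29, -0.19 and -0.31 in mutants and -0.35, -0.33 and -0.31 in controls.

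Among the 36 pairs of these genes, Pearson's r over the 12 epidermal arrays was between 0.618, for Itgb1 and Lamb3, and 0.996, for Itga6 and Dst, and it was above 0.9 in 17 pairs. Of 13969 other probe sets above background on all 12 arrays, those most like the mean of the 9 were Megf6 at 0.99, Larp1 at 0.989 and Dicer1, Kmt2a and Brd3 at 0.988. These correlations are a description, since the points share treatment groups and arrays.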

How the data were processed

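RNA was extracted from peeled hindpaw epidermis and lumbar DRG, and 100 ng per array was amplified, labelled with biotin and hybridised. The study describes the arrays of a group as biological replicates. The p-values set differences between group means against the spread between those replicates, which limma moderates across probe sets. GEO's labels give a dispase time that differs from that in the paper. The authors deposited log2 signals per probe set, after RMA (background subtraction, quantile normalization and probe summary), and the submitters' processing notes also name Partek, with which the study ran an ANOVA. The deposited values were used unchanged and hold 0 missing values. Arrays give no read depth, so precision rests on how many there were.

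Of 35556 probe sets, 23410 paired with at least 1 gene were tested, 1621 of them with several genes, and 12146 unnamed ones were not. Each comparison was fitted with limma 3.58.1 (lmFit, eBayes) under R 4.3.3 on its own groups, two-sided, with Benjamini-Hochberg adjustment, after testing the fit on simulated data. The interaction used all 12 epidermal arrays. Python 3.11.15, pandas 2.3.3, numpy 2.4.6 and the R package data.table (version 1.17.8) handled tables, and matplotlib 3.10.9 drew figures. List symbols absent from the array were looked up in RefSeq (GRCm38.p6), which replaced none of them, and promoter sequences were taken from it. Of 194 entries in 18 gene lists, 184 were measured. The 9 genes and the lists were chosen with earlier results of these data known. Named from each list were up to 4 genes per comparison, the called ones of largest change or, with none called, those of smallest p, and Cd151 was added after its values were seen. The 5 genes most like the mean of the 9 were named by Pearson's r. Alternatives tried were quantile normalizing again, centring arrays on their median, dropping dim probe sets, testing every probe set, limma's trend and robust options, an ordinary ANOVA, 1 fit over every group of the tissue, a block for replicate number, a 2-fold threshold and leaving out each array in turn.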

Additional observations from a re-analysis of the deposited data

How the results depend on the processing

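No difference between groups changed sign where it had been called. With at least 2-fold required, the count of genes higher with CFA was 1 in mutants and 1 in controls, Itga6 in each. Leaving out 1 array at a time, 7 to 8 of the 9 genes were called in mutants and 6 to 8 in controls, and 0 in each comparison of mutant with control and in the interaction. By ordinary ANOVA 6 rose in mutants, without Itga3 (adjusted p = 0.0519), Itgb1 (0.0746) and Lamb3 (0.0806), and 6 in controls. After a further quantile normalization 8 rose in controls, with Itga3 (adjusted p = 0.0178) and Itgb1 (0.0165) added, and with trend and robust moderation 7. Lamb3 in mutants was also lost after centring on the median (adjusted p = 0.0753) and with all probe sets tested (0.0752). The cause of these lost and gained calls was not tested.

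Replicate numbers are shared by the groups in the labels, and deviations of same-numbered arrays from their group means correlated at -0.236 to 0.233. No clear pairing by number was seen, but with 3 arrays per group this check cannot exclude it. With replicate number as a block, 8 of the 9 genes were called in mutants, without Lamb3 (adjusted p = 0.0605), 6 in controls and 0 in the other comparisons. Averaging several probe sets per gene did not apply, since each gene had 1, and the fit of all groups of a tissue is the same as the reported fit for DRG and for the interaction. With 3 arrays per group, differences between mutant and control of the size seen here have intervals that reach 0 or pass it in most genes.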
